A study of Mus musculus with 18 samples.

Results

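The AMP-activated protein kinase (AMPK) was followed in sorted mouse cones through the genes of its catalytic subunits (Prkaa1 and Prkaa2), its β subunits (Prkab1 and Prkab2), its γ subunits (Prkag1, Prkag2 and Prkag3) and its main upstream kinases (Stk11 and Camkk2). The 9 genes were chosen by symbol, with earlier results of these data known, from the 54532 genes of the annotation, and all 9 had a count in at least 1 library. Each library was made from 1000 H2BGFP-positive cones sorted from 1 retina of a wildtype mouse. BALB/c mice (albino) were taken at P21 and C57BL/6J mice (pigmented) at P35, and all eyes had been injected with AAV at P0. Control cones carried AAV8-SynP136-H2BGFP, in which the cone-specific SynP136 promoter drives nuclear GFP. Txnip cones carried the same vector plus AAV8-RedO-Txnip, whose human red opsin promoter is mostly active in cones and weakly in rods. There were 6 control and 6 Txnip libraries from BALB/c and 3 of each from C57BL/6J. Strain and age changed together, so a difference between the strains cannot be told apart from a difference between P21 and P35. The labels do not say which retinas came from the same mouse, so the p-values below measure the spread between retinas.

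AMPK is a heterotrimer that senses a fall in cellular energy. AMP and ADP bind the γ subunit, the β subunit holds the complex together and binds glycogen, and the α subunit carries the kinase domain, which becomes active when a threonine in its activation loop is phosphorylated. LKB1, the product of Stk11, and the calcium-dependent kinase CaMKK2 phosphorylate that threonine. Active AMPK turns on fuel oxidation and autophagy and restrains lipid synthesis and mTORC1. Txnip, an α-arrestin that limits glucose uptake, is itself an AMPK substrate. Transcript levels, as measured here, carry no information on phosphorylation.

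The coding stretches around the phosphorylated residues are shown because they are the sites through which the members act on each other and on Txnip. The 51 bases of Prkaa1 lie in its exon 5 (GRCm38, chr15:5169943-5169993, plus strand) and those of Prkaa2 in its exon 5 (chr4:105049357-105049407, minus strand). The capitals mark the codon of the activation-loop threonine, codon 183 of Prkaa1 and codon 172 of Prkaa2 in the coding sequences annotated by GENCODE. In Txnip, in exon 6 (chr3:96560001-96560051, plus strand), the capitals mark codon 308, the serine that AMPK phosphorylates.
Prkaa1: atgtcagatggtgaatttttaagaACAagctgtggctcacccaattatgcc
Prkaa2: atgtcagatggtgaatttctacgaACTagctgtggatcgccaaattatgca
Txnip: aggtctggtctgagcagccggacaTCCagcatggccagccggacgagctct

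Counted from the first base shown, Prkaa1 and Prkaa2 differed at 7 of the 51 bases (T19C, A22C, A27T, C36A, A39G, C42A and C51A, Prkaa1 base first). Over the aligned coding bases, the α genes were identical at 1161 of 1624 (71.5%), the β genes at 595 of 791 (75.2%), and Prkag1 and Prkag2 at 707 of 985 (71.8%). The longest run of bases shared by any of their transcripts was 35 between the α genes, 23 between the β genes and 15 between Prkag1 and Prkag2. Outside the annotated overlaps given below, no other gene matched a member at 95% identity or more over at least 100 bases, so the paralogues could be counted separately.

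The members lie on 6 chromosomes of GRCm38, at chr15:5143861-5181899 (Prkaa1), chr4:105029874-105109890 (Prkaa2), chr5:116013586-116024508 (Prkab1), chr3:97658193-97673812 (Prkab2), chr15:98812797-98831521 (Prkag1), chr5:24862744-25100642 (Prkag2), chr1:74738922-74749221 (Prkag3), chr10:80115803-80130682 (Stk11) and chr5:122731170-122779409 (Camkk2), and all counts were over their annotated exons.

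The libraries held 647712 to 5172156 read pairs assigned to genes. All 12 cone markers were counted in every library and made up 3.73% to 9.82% of the counts, so the label of the sorted cells fitted their transcripts. The rod gene Sag made up 0.596% to 1.30% of every library, so the other 8 rod genes were summed without it, a choice made after the values were seen. These 8 genes were 0.108% to 0.280% of 16 libraries, but 1.39% (Wilson 95% interval 1.37% to 1.40%, for counting error only) of C57BL/6J control replicate 1 and 0.956% (0.945% to 0.967%) of C57BL/6J Txnip replicate 2. Sag was lowest in this last library, and with all 9 rod genes control replicate 1 (2.28%) still stood above the other 17 libraries (0.845% to 1.55%), but Txnip replicate 2 (1.55%) lay close to Txnip replicate 1 (1.5%) and did not stand apart. Some differences of members that involve C57BL/6J are also given below without these 2 libraries. Txnip was at 0 to 3 counts in the 9 control libraries. In the Txnip libraries, where the vector's transcripts and those of the mouse gene are not separated by gene-level counts, it was at 1239 ± 126 CPM (counts scaled to the TMM-normalised library size; SD, n = 6) in BALB/c and at 1552 ± 635 CPM (n = 3) in C57BL/6J. Apart from Txnip, the antisense gene Gm15441, which shares 606 of its bases, was the other gene called for Txnip in both strains.

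Per kilobase of exon and in the counts as deposited, Prkab1 and Prkag1 were the most abundant members, Prkaa1 was well below them, and Prkaa2 and Prkag2 were lower still. Prkag3, the γ isoform known from glycolytic skeletal muscle, was at or near 0. In BALB/c control cones the level per length was 36.5 ± 2.05 CPM per kb for Prkab1 and 33.5 ± 2.68 for Prkag1 (SD, n = 6). Among 25914 genes ordered by level per length, these stood at the 95.1 and 94.6 percentiles. The counting used no strand and credited a read to every gene it touched, and Prkag1 overlaps the antisense gene B130046B21Rik. With all counts of B130046B21Rik taken off, the level of Prkag1 was 8.59 ± 1.27 CPM per kb (percentile 78.6). It then still lay above Prkaa1 in all 6 BALB/c control libraries (exact permutation p = 0.03125), but in C57BL/6J it lay above Stk11 as deposited in only 2 of 3 control and 2 of 3 Txnip libraries.

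The next levels in BALB/c controls were 4.73 ± 0.945 CPM per kb for Prkaa1, 3.69 ± 1.02 for Prkab2 and 3.38 ± 0.874 for Stk11. Stk11 shares 5.07% of its exonic bases with its antisense neighbour Cbarp. With all counts of Cbarp taken off, Stk11 was at 1.48 ± 0.80 CPM per kb, at the level of the lower tier. This is a lower bound, since any Cbarp counts from outside the shared bases are taken off too. By exonic length Camkk2 (1.55 ± 0.709), Prkaa2 (1.54 ± 0.282) and Prkag2 (1.31 ± 0.528) formed the lower tier. The exonic lengths of Camkk2 and Prkag2 are 10921 and 6480 bases, but their longest transcripts have 4861 and 3331. Prkaa2 has 7969 by both. The places of Camkk2 and Prkag2 in the order therefore depend on the length used. In the order of levels, 3 of the 8 steps put every library on the same side, namely those from Prkag1 to Prkaa1, from Stk11 to Camkk2 and from Prkag2 to Prkag3 (exact two-sided sign-flip permutation test, p = 0.03125, the smallest that 6 libraries allow). The order was set by the means of these same libraries, and the p-values are unadjusted, so they only describe it. With the counts of Cbarp taken off, the mean of Stk11 lay below that of Camkk2. At the other 5 steps the neighbours did not differ beyond their spread (exact permutation p from 0.125 to 0.9688). With 3 libraries a group the same test cannot go below 0.25, so the order in C57BL/6J is a description as well.

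**Figure D1:**
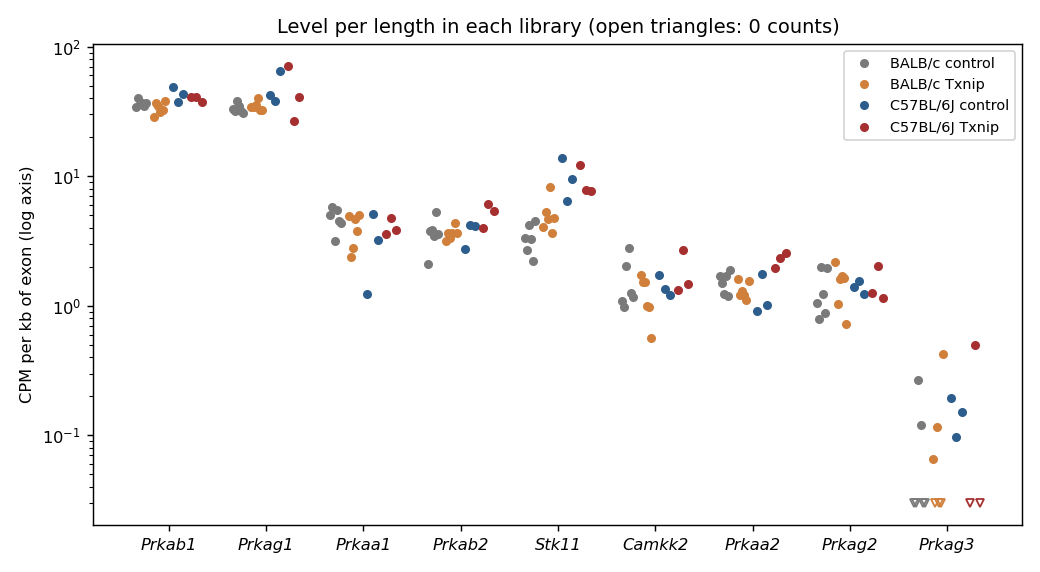
Level of each gene per kilobase of exon (CPM per kb, log axis) in every library, coloured by group, with open triangles for libraries at 0 counts. Prkab1 and Prkag1 sit highest in all 4 groups in the counts as deposited, Stk11 is higher in the C57BL/6J libraries, and Prkag3 has 0 counts in 9 of 18 libraries.

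Per kilobase of exon, Prkaa1 lay above Prkaa2 in every library, on exonic lengths of 4655 and 7969 bases. In raw counts Prkaa2 was the higher in C57BL/6J control replicate 1 (20 beside 16) and Txnip replicate 3 (88 beside 78). The coding lengths are nearly equal, at 1677 and 1656 bases. The order in those libraries therefore rests on the annotated lengths, and which ends of the transcripts the cones use was not tested. The level of Prkaa1 per length was 3.03 times that of Prkaa2 in BALB/c control cones, 2.83 times in BALB/c Txnip cones, 2.34 times in C57BL/6J control cones and 1.77 times in C57BL/6J Txnip cones. Over all 18 libraries the ratio ran from 1.38 to 3.86. In each BALB/c group all 6 libraries lay on one side (exact permutation p = 0.03125, 0.0625 after Benjamini-Hochberg adjustment over 12 tests), and in each C57BL/6J group all 3 did (exact permutation p = 0.25, the smallest possible). In C57BL/6J controls the mean log2 ratio of Prkaa2 to Prkaa1 was −1.22, and −1.61 without replicate 1, the library high in the 8 rod genes.

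The β subunits were further apart. Prkab1 was 10.1, 9.15, 11.7 and 7.77 times as high as Prkab2 per length in the same order of groups, with 6.59 to 17.4 as the range over 18 libraries. The exact tests gave the same p-values as for the α subunits.

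The γ subunits were the furthest apart in the counts as deposited. Prkag1 was 26.5, 24.1, 33.6 and 29.5 times as high as Prkag2, and 12.9 to 55.8 times over the 18 libraries. In C57BL/6J Txnip cones the mean log2 ratio of Prkag2 to Prkag1 was −4.88. It was −5.48 without replicate 2 and −4.42 without replicate 1. This ratio carries an annotation limit: 950 of the 2175 exonic bases of Prkag1 (43.7%) are shared with B130046B21Rik. If every count of B130046B21Rik is taken off Prkag1, 19.1% to 30.2% of its counts are left, and the log2 ratio of Prkag2 to Prkag1 moves from −4.73 to −2.77 in BALB/c controls and from −5.07 to −3.10 in C57BL/6J controls. Prkag1 remained above Prkag2 by this lower bound in the mean of all 4 groups, but the γ ratios (−2.77, −2.62, −3.10 and −2.70) were then smaller in size than the β ratios (−3.34, −3.19, −3.55 and −2.96), so the order of the pairs turned. Prkag2 in turn shares 795 of its 6480 exonic bases with Prkag2os2 and 142 with Prkag2os1, whose mean counts per group were 1.33 to 4.0 and 1.0 to 2.5.

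**Figure D2:**
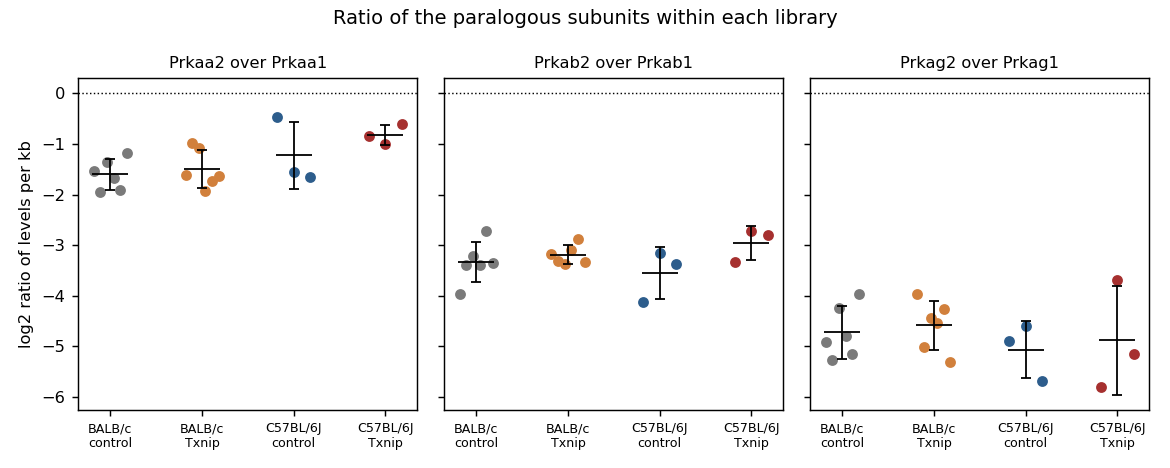
Log2 ratio of the levels per kb of the paralogous subunits in each library (points), with the mean and SD of each group in black. All points lie below 0, so the first-numbered isoform was the higher one per kb of exon in 18 of 18 libraries for each pair.

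No shift of these ratios with Txnip was detected, and in C57BL/6J none could have passed, since 3 libraries against 3 cannot give a two-sided exact permutation p below 0.1. The log2 ratio of Prkaa2 to Prkaa1 was higher by 0.10 with Txnip in BALB/c (exact permutation p = 0.5996) and by 0.40 in C57BL/6J (exact p = 0.4). Over the 9 comparisons of the 3 ratios between groups, the smallest exact p was 0.2 and the smallest adjusted p 0.716, and the ranges overlapped in all 9.

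The γ3 gene, Prkag3, was at 0 counts in 9 of 18 libraries and at 1 to 5 in the others, so it did not pass the filter on low counts and was not tested. The other 8 members were tested in every comparison.

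The first question was whether Txnip changes the AMPK genes of BALB/c cones. None of the 8 members tested passed an adjusted p of 0.05 in edgeR's quasi-likelihood test, where 2 of 12017 genes did (0.0166%) and 1372 (11.4%) had an unadjusted p under 0.05. The α genes were lower in the fit, Prkaa1 by a log2 fold change of −0.30 ± 0.21 (SE, adjusted p = 0.602) and Prkaa2 by −0.21 ± 0.20 (0.728). Prkab1, the scaffold β1, was measured most closely, at −0.13 ± 0.089 (adjusted p = 0.612), and its 95% interval in fold was 0.806 to 1.04. The values were −0.067 for Prkab2, 0.070 for Prkag1, 0.21 for Prkag2 and −0.22 for Camkk2. The members' median was −0.096, beside 0.00 over all genes tested.

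Stk11, which encodes LKB1, had the largest difference among the members. It was at 10.1 to 20.8 CPM (median 15.1) in the 6 BALB/c control libraries and at 16.8 to 37.9 CPM (median 21.6) in the 6 Txnip libraries. All 6 Txnip libraries lay above the control median, but the ranges overlapped. The fitted difference was 1.49-fold (95% interval 1.08 to 2.05), with an unadjusted p of 0.0171 and an adjusted p of 0.302. The highest value came from Txnip replicate 4, without which the log2 fold change went from 0.58 to 0.40. With the counts of Cbarp taken off it was 0.97 (edgeR adjusted p = 0.32). The 6 amacrine markers made up 0.0279% to 0.0360% of the BALB/c control libraries and 0.0379% to 0.0513% of the Txnip libraries, with no overlap, and the 12 cone markers had medians of 6.01% and 5.41%. Their part in the members' differences was not tested.

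In C57BL/6J cones the same comparison again called none of the 8 members, where 2 of 12974 genes were called (0.0154%) and 97 (0.748%) had an unadjusted p under 0.05. With 3 libraries a group and a biological coefficient of variation of 34.3%, against 18.02% in BALB/c, the intervals were wide. The α2 gene Prkaa2 differed most. It was at 7.21, 13.96 and 8.04 CPM in the control libraries and at 15.7, 18.7 and 20.3 CPM in the Txnip libraries. Each Txnip library was above each control library. Ranges did not overlap, in either direction, for 4.42% of all genes tested. The fold change was 1.87 (95% interval 1.06 to 3.32, unadjusted p = 0.0352, adjusted p = 1). The counts behind it were 20 to 39 in control and 51 to 88 in Txnip libraries. Leaving out the 2 libraries high in the 8 rod genes left a log2 fold change of 0.70 in place of 0.90.

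The other members of C57BL/6J cones gave log2 fold changes of 0.33 (Prkaa1), −0.12 (Prkab1), 0.48 (Prkab2), −0.082 (Prkag1), 0.079 (Prkag2), −0.10 (Stk11) and 0.36 (Camkk2), each with an adjusted p of 1. Without the 2 libraries high in the 8 rod genes the sign turned for Prkaa1 (−0.19), Prkag1 (0.094), Prkag2 (−0.23) and Stk11 (0.31). None of these values can be read as a change. The members' median was 0.21, beside 0.012 over all genes.

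Whether the Txnip effect itself differed between the strains was tested as an interaction over all 18 libraries. edgeR called 0 of 14751 genes (0%), with 706 at an unadjusted p under 0.05, and DESeq2 also called 0. For Prkaa2 the effect was higher in C57BL/6J than in BALB/c by 1.12 ± 0.36 on the log2 scale (unadjusted p = 0.00485, adjusted p = 0.906), and by 0.94 without the 2 libraries high in the 8 rod genes. For Stk11 it was lower by 0.67 in C57BL/6J, a log2 difference of −0.67 ± 0.38 (unadjusted p = 0.0921, adjusted p = 0.9999), −1.25 (adjusted p = 0.993) with the counts of Cbarp taken off, and −0.25 (adjusted p = 0.975) without the 2 libraries high in the 8 rod genes. Without C57BL/6J control replicate 1 alone it was −0.35 (adjusted p = 1). The remaining 6 members had adjusted p-values of 0.9999.

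**Figure D3:**
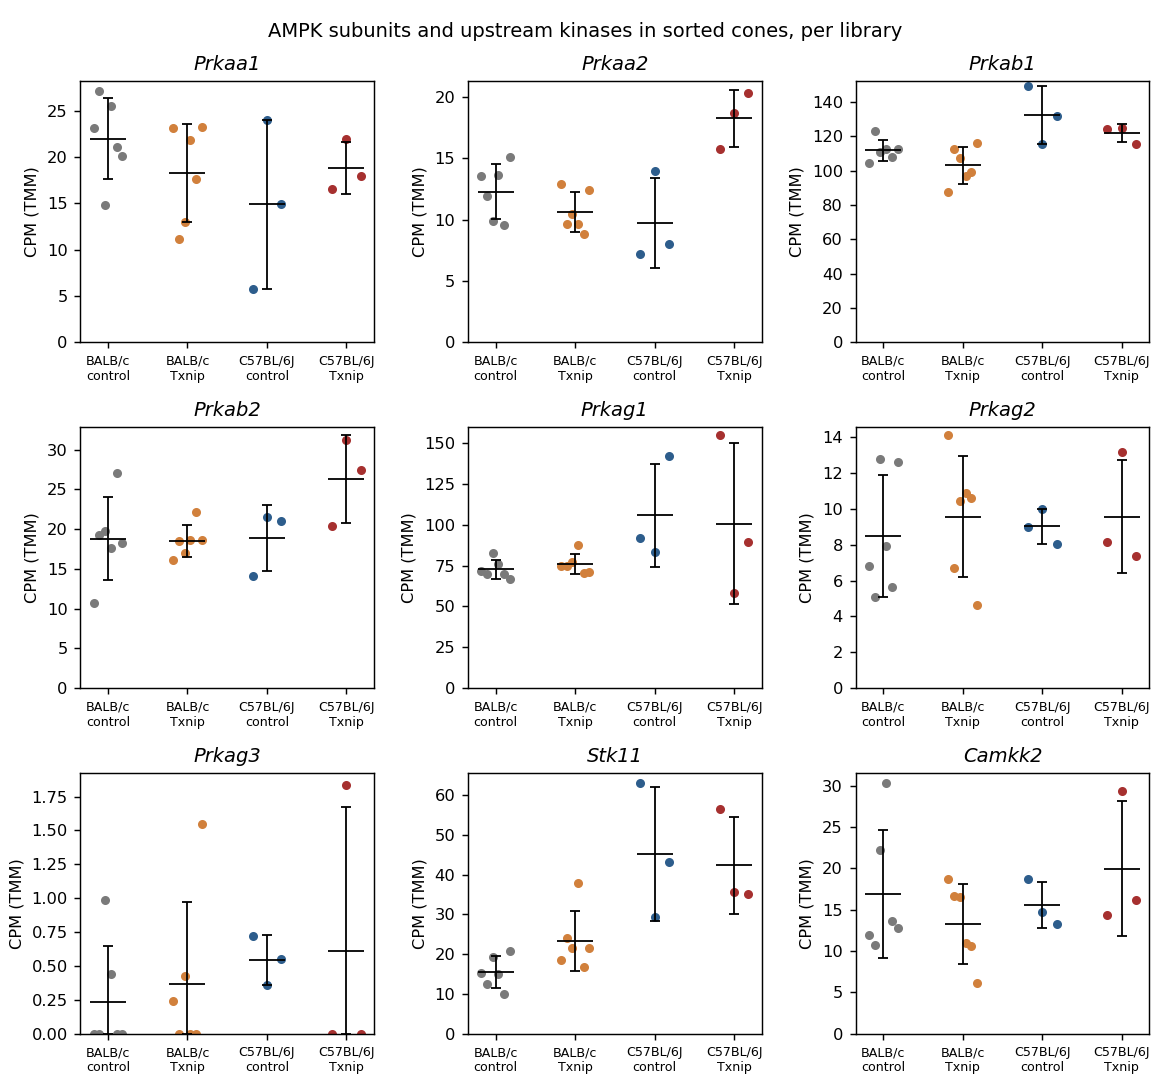
CPM of the 9 members in every library (points) with the mean and SD of each group in black, on linear axes from 0 that differ between panels. The Stk11 libraries of C57BL/6J (29.4 to 63.0 CPM in controls) lie above all BALB/c controls (10.1 to 20.8 CPM), and the Prkaa2 Txnip libraries of C57BL/6J lie above their controls.

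Between the strains, Stk11 was the one member called in control cones in the fit of all 18 libraries. It was at 15.3, 12.4, 19.2, 15.0, 10.1 and 20.8 CPM in the BALB/c P21 controls and at 63.0, 29.4 and 43.3 CPM in the C57BL/6J P35 controls. The lowest C57BL/6J library stood above the highest BALB/c library. The fitted difference was 2.89-fold (95% interval 1.98 to 4.23, log2 1.53 ± 0.26, edgeR adjusted p = 2.563e-04). Of all 14751 genes tested, 17.5% were called and 8.03% were higher in C57BL/6J, and 18.6% had ranges that did not overlap, so 1 called member of 8 stands near the share of all genes.

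The Stk11 difference was also present in the Txnip libraries, tested as another contrast of the same fit, which shares its normalisation and dispersion. There the BALB/c libraries were at 16.8 to 37.9 CPM and the C57BL/6J libraries at 56.4, 35.6 and 35.1 CPM. The ranges overlapped through BALB/c replicate 4, and the fitted difference was 1.81-fold (95% interval 1.24 to 2.65, edgeR adjusted p = 0.0273), beside 17.6% of all genes called (8.24% higher, 9.38% lower). Without the 2 libraries high in the 8 rod genes the log2 fold change was 0.96 (adjusted p = 0.0151).

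The values that moved with this result are as follows. C57BL/6J control replicate 1, the library richest in rod genes, was also the highest in Stk11, and the difference stayed past the threshold without it and Txnip replicate 2 (log2 1.21 ± 0.28, edgeR adjusted p = 0.00369). Stk11 shares 232 of its 4580 exonic bases (5.07%) with the antisense gene Cbarp, and the difference was larger when all Cbarp counts were taken off (log2 2.42, edgeR adjusted p = 0.000121). This takes off a larger share where Stk11 is low. It left 17.65% to 68.18% of the Stk11 counts in BALB/c controls and 78.21% to 92.68% in C57BL/6J controls. The larger value is therefore no evidence on the difference. All 4 markers of ganglion cells were counted in every library, and they made up 0.0298% to 0.0911% of BALB/c controls and 0.00186% to 0.00927% of C57BL/6J controls. The 6 amacrine markers were 0.0278% to 0.0360% and 0.0112% to 0.0359% of the same libraries. The part of those cells in the Stk11 difference was not tested. In bulk samples such as these, fewer cells of a type and less RNA per cell cannot be told apart.

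The promoter of Stk11 is shown because this gene carried the strain difference. The 250 bases before its RefSeq start (GRCm38.p6, chr10:80115545-80115794, plus strand) hold 3 CCAAT motifs, in capitals.
Stk11: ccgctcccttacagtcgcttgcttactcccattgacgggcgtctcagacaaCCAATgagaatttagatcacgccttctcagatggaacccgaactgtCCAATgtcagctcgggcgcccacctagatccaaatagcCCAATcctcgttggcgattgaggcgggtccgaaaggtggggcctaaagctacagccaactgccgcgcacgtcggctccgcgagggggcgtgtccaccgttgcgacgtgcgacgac
CCAAT was found on either strand in 33.9% of 32851 promoter windows of the same length. The GC box GGGCGG and the E box CACGTG were not in this window, and they were in 32.7% and 6.02% of all windows. The CRE core TGACG was found once on either strand, and 17.8% of all windows hold it. Such matches describe the letters only.

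By a fixed measure of likeness, the genes whose centred log2 CPM followed Stk11 most closely over the 18 libraries were Crocc (root-mean-square difference 0.319), E330034L11Rik (0.322) and Grhpr (0.334), where the median over 14750 genes was 0.822.

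The subunit genes differed less between the control groups. Prkag1 was at 66.7 to 82.9 CPM in BALB/c and at 91.9, 83.4 and 142.2 CPM in C57BL/6J. These ranges did not overlap, and the log2 fold change of 0.54 ± 0.21 had an edgeR adjusted p of 0.0727. In a fit of the 9 control libraries alone Prkag1 had an adjusted p of 0.0353, and without the 2 libraries high in the 8 rod genes it was at 0.62 (adjusted p = 0.0236). Without C57BL/6J control replicate 3, its highest library, the value was 0.27 (adjusted p = 0.497), and with the counts of B130046B21Rik taken off it was 0.56 (adjusted p = 0.134). The antisense gene B130046B21Rik, with which Prkag1 shares bases, had a mean raw count of 247.3 in C57BL/6J controls beside 146.2 in those of BALB/c. These counts are not scaled to library size.

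For Prkaa1 the log2 fold change was −0.55 ± 0.32 (adjusted p = 0.248). Its 3 C57BL/6J control libraries were at 5.76, 24.0 and 15.0 CPM, and the lowest was the library richest in rod genes. Without C57BL/6J control replicate 2 the value was −1.08, with an edgeR adjusted p of 0.036. Without replicate 1 it was −0.19 (adjusted p = 0.72), and without the 2 libraries high in the 8 rod genes −0.19 (adjusted p = 0.699). Prkab1 gave 0.24 ± 0.12 (adjusted p = 0.168), Prkaa2 −0.34 ± 0.26 (0.392, with −0.71 and adjusted p = 0.0882 without C57BL/6J control replicate 2, −0.19 without replicate 1 and −0.22 without replicate 3), Prkab2 −0.0044 (0.993), Prkag2 0.064 (0.925) and Camkk2 −0.12 (0.849). The members' median was 0.030, beside −0.0012 over all genes. In the Txnip libraries Prkaa2 was called as well, at 1.71-fold higher in C57BL/6J (edgeR adjusted p = 0.0313), with 8.85 to 12.9 CPM in BALB/c and 15.7 to 20.3 CPM in C57BL/6J. Without the 2 libraries high in the 8 rod genes this Prkaa2 value was 0.75 on the log2 scale (adjusted p = 0.0517) and Prkag1 was called in its place (0.67, adjusted p = 0.0134).

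**Figure D4:**
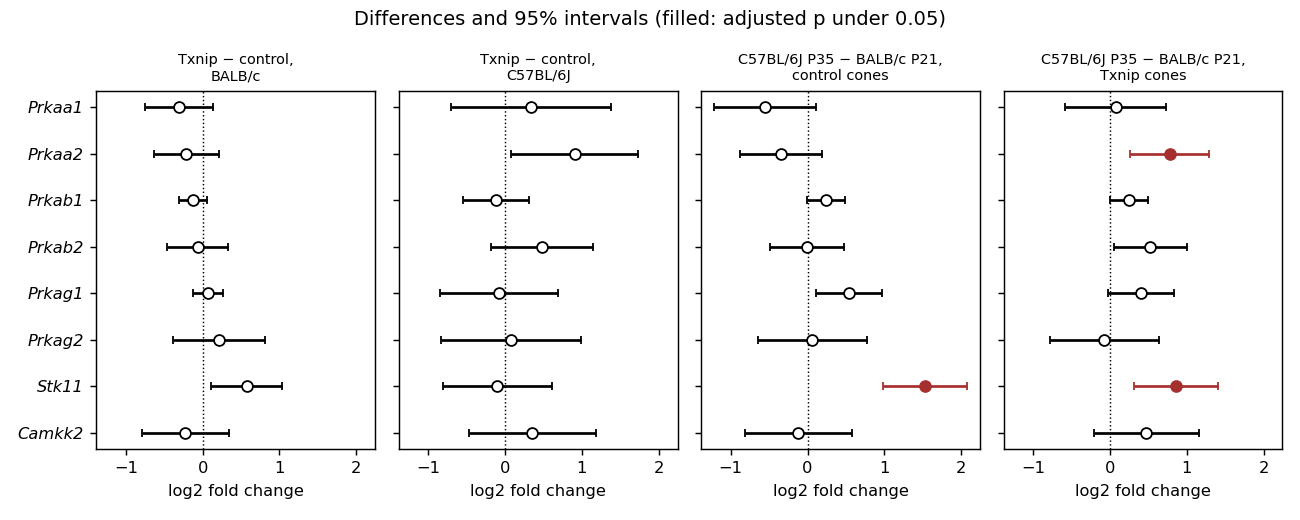
Log2 fold change and 95% interval of the 8 members tested, for Txnip against control in each strain and for C57BL/6J P35 against BALB/c P21 in control and in Txnip cones, with filled points for an adjusted p under 0.05. Stk11 is filled in both strain panels and Prkaa2 in the Txnip one, and no member is filled in either Txnip against control panel.

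The genes around AMPK were followed as 8 lists of 72 genes in all, covering upstream kinases, phosphatases, related kinases, adenylate metabolism, substrates and mTORC1. No gene of the lists passed the edgeR test for Txnip in either strain: 0 of 62 tested in BALB/c, with 11 at an unadjusted p under 0.05, and 0 of 65 in C57BL/6J, with 1. Over all genes tested, 0.0166% and 0.0154% were called, and 11.4% and 0.748% had an unadjusted p under 0.05. The smallest adjusted p in BALB/c was 0.106, for the AMPK-related kinase Snrk (log2 fold change −0.63 ± 0.14). DESeq2 called Snrk alone of these genes in BALB/c. In edgeR Snrk was called without control replicate 1 (log2 −0.69, adjusted p = 0.0498), Txnip replicate 1 (−0.69, 0.0134) or Txnip replicate 2 (−0.74, 0.0488). The list medians in BALB/c ran from −0.011 to 0.30 on the log2 scale, beside 0.00 over all genes.

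Between the strains in control cones, 8 of the 67 genes tested were higher in C57BL/6J and 3 were lower, beside 8.03% and 9.52% of all genes. These 11 calls became 6 without C57BL/6J control replicate 3 and 7 without BALB/c control replicate 4. Among the substrates of lipid metabolism 1 of 10 was lower and none higher. This was Acacb, the mitochondrial acetyl-CoA carboxylase that restrains fatty acid oxidation, at a log2 fold change of −2.58 ± 0.47 (edgeR adjusted p = 4.219e-04). Of the mTORC1 list 1 of 9 was lower, Eif4ebp1, a repressor of translation that mTORC1 phosphorylates, at −2.86 ± 0.36 (adjusted p = 6.501e-06).

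The adenylate list gave 1 gene in each direction. Ak4, a mitochondrial adenylate kinase, was higher by 1.6 (adjusted p = 0.0224), and Ak1, the main cytosolic one, was lower with −0.64 (0.0286). Camkk1, the other calcium-dependent kinase kinase, was the 1 of 8 upstream genes called, at 0.78 (adjusted p = 0.00127). Among substrates in growth and autophagy 2 of 8 were higher, Ulk1, the kinase that starts autophagy, at 0.71 (0.0225), and Rptor, the mTORC1 subunit that AMPK phosphorylates, at 0.50 (0.00991).

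The transcription list gave 1 of 8, the class IIa histone deacetylase Hdac4 at 1.32 (adjusted p = 2.901e-04). Among phosphatases and folliculin partners 2 of 8 were higher, Fnip2 at 1.03 (0.0201) and Ppm1a at 0.51 (0.0278). Of the kinases that LKB1 also activates 1 of 10 was called, Mark3 at 0.58 (0.0495). In the Txnip libraries 8 genes of the lists were higher and 3 lower, beside 8.24% and 9.38% of all genes. Ppargc1a (0.45, adjusted p = 0.0201), Snrk (0.72, 0.00385) and Mark4 (1.33, 0.0156) were called there and not in the controls. In the controls they were at 0.0067 (adjusted p = 0.982), 0.25 (0.316) and 0.55 (0.316). Fnip2, Ulk1 and Mark3 were called in the controls and not in the Txnip libraries. Fnip2 was at −0.70 there (adjusted p = 0.145), Mark3 at 0.38 (0.211) and Ulk1 at 0.55 (0.0734). The edgeR interaction test called none of these genes. Without the 2 libraries high in the 8 rod genes, 6 genes of the lists were higher and 5 lower in the control comparison, beside 6.58% and 11% of all genes in that fit. Ak1 (−0.58, adjusted p = 0.0849), Ulk1 (0.43, 0.213), Ppm1a (0.46, 0.0558) and Mark3 (0.51, 0.115) were then not called, while Mtor (0.60, 0.031), Tab1 (−0.69, 0.0259), Tbc1d1 (−2.90, 0.0104) and Tbc1d4 (−4.25, 0.00907) were.

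**Figure D5:**
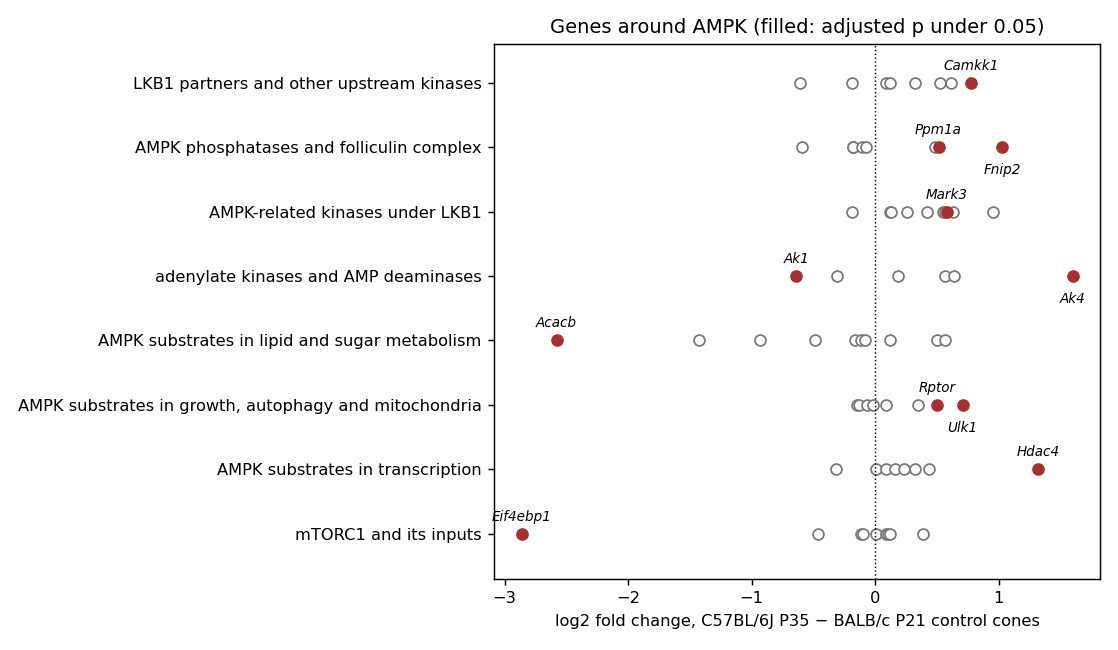
Log2 fold change of C57BL/6J P35 against BALB/c P21 control cones for the 67 tested genes of the 8 lists, 1 row per list, with filled and named points for an adjusted p under 0.05. The largest differences are those of Eif4ebp1 (−2.86) and Acacb (−2.58), both lower in C57BL/6J.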

How the data were processed

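Cones were sorted per retina and sequenced with a modified Smart-Seq2 protocol. Per the labels and file headers, the authors mapped reads with STAR to GRCm38.p6 and assigned pairs to genes by featureCounts 1.6.2 (Ensembl 94 annotation, no strand option, overlapping genes each credited), and they deposited raw counts. The authors also deposited 1 table per strain from DESeq2, with log2 fold changes, p-values and a Wald score, which was not used. Here the counts of 18 libraries (647712 to 5172156 pairs) were scaled by TMM and filtered with filterByExpr in edgeR 4.0.16, and tested with its quasi-likelihood test and Benjamini-Hochberg adjustment at 0.05, per strain for Txnip and in 1 fit of 18 libraries for strain and interaction. CPM used TMM sizes; levels per length used the exonic length of the annotation, and ratios a pseudocount of 0.5 counts. Sequences came from GRCm38 and RefSeq. Alternatives included DESeq2 1.42.0 with default settings, filters, and each library left out. The scripts were tested on simulated data. Members, lists and most tests were chosen with earlier results of these data known. By rule, the named genes are all members, Txnip, called list genes (at most 6 a list), 3 genes most like Stk11, and overlapping genes. Sag, Opn4, Phactr2, Spp1, Calb2 and Epb41l4a, and list genes named where they were not called, were chosen after their values were seen. The 36 pairs of replicates differed by more than sampling noise (chi-square per degree of freedom at least 1.83).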

Additional observations from a re-analysis of the deposited data

Results flagged for a closer look

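In the BALB/c groups of 6, a library was marked when its gap to the nearest other exceeded Dixon's 95% critical share of the group's range. Of 26 sets of values examined 2 were marked, where chance marks about 1 in 20. Stk11 in BALB/c Txnip replicate 4 stood at 37.9 CPM, with the other 5 libraries at 16.8 to 24.1 CPM. Prkag3 in BALB/c Txnip replicate 6, the smallest library, stood at 1.55 CPM, which is 1 read pair and under the 4.65 CPM that 3 counts are worth there.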

How the results depend on the processing

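No member was called for Txnip in either strain or for the interaction under any alternative run, and Stk11 stayed called between the strains under all of them (log2 0.86 to 2.42). The number of members called between the strains, 1, became 2 with all genes of at least 1 count, at a threshold of 0.1, with only the 9 control libraries, and with C57BL/6J control 1 and Txnip 2 left out, each time by Prkag1, and 2 in the Txnip libraries by Prkaa2. Leaving out single libraries gave 1 to 3: Prkaa1 and Prkag1 were added without C57BL/6J control replicate 2, and Prkag1 without C57BL/6J Txnip replicate 1 or 2. The calls over all genes moved too. Between the strains they were 2588 (17.5% of 14751) in the main fit and 1507 to 3605 under the alternatives, with 3605 at a threshold of 0.1. Over all genes, the count for Txnip in BALB/c moved from 2 to 76 with DESeq2, to 78 with its filtering set for 0.05 (the setting used at first, replaced by the planned default after its count was seen to differ from one already known), to 1400 with all genes of at least 1 count and to 0 with at least 10 counts in every library, and ran from 2 to 258 over single libraries left out (258 without Txnip replicate 1, 23 without control replicate 1, 6 without Txnip replicate 2). In C57BL/6J 2 became 5 (with Opn4, Phactr2 and Spp1) and 0 under these filters. Between strains 2588 became 1507 with at least 10 counts, and 1605 to 2930 over libraries left out (1605 without C57BL/6J control replicate 3). For the interaction 0 became 186 with at least 1 count, 2 without C57BL/6J control 1 and Txnip 2 (Calb2 and Epb41l4a), and 0 to 1 over libraries left out (Epb41l4a without C57BL/6J control replicate 1). The lists' 0 calls in BALB/c became 1 with DESeq2 (Snrk) and 3 with at least 1 count (Crtc2, Rheb and Snrk), and their 11 between strains became 6 with at least 1 count. Over single libraries left out, the lists gave 0 to 1 in BALB/c and 6 to 12 between strains (6 without C57BL/6J control replicate 3, 7 without BALB/c control replicate 4). The 1 in BALB/c was Snrk, without control replicate 1 (log2 −0.69, edgeR adjusted p = 0.0498), Txnip replicate 1 (−0.69, 0.0134) or Txnip replicate 2 (−0.74, 0.0488). The cause was not tested.

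With the longest transcript as length, the log2 ratio of Prkab2 to Prkab1 became −3.87, −3.72, −4.08 and −3.49 in BALB/c control, BALB/c Txnip, C57BL/6J control and C57BL/6J Txnip, and that of Prkag2 over Prkag1 −4.17, −4.03 and −4.51 in the first 3. With the counts of B130046B21Rik taken off, the γ ratio became −2.77, −2.62, −3.10 and −2.70. Signs turned for members that were not called in the reported comparison. Between strains this happened with Txnip libraries in place of controls for Prkaa1 (0.073), Prkaa2 (0.78, called there), Prkab2 (0.52), Prkag2 (−0.072) and Camkk2 (0.47), and without C57BL/6J control 1 and Txnip 2 for Prkab2 (0.15). In the Txnip libraries Prkaa1 turned to −0.049 without those 2. For Txnip in C57BL/6J it happened without those 2 libraries for Prkaa1 (−0.19), Prkag1 (0.094), Prkag2 (−0.23) and Stk11 (0.31). For the interaction it happened for Prkab1 with DESeq2 (−0.0051, and the same with its filtering set for 0.05), DESeq2 size factors (−0.012) and at least 10 counts (−0.0021), and for Prkag1 without those 2 libraries (0.045).

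With single libraries left out, signs also turned, with log2 ranges for Txnip in BALB/c −0.34 to 0.023 for Camkk2 and −0.17 to 0.079 for Prkab2. The ranges were for Txnip in C57BL/6J −0.044 to 0.85 for Prkaa1, −0.34 to 0.22 for Stk11, −0.50 to 0.18 for Prkag1, −0.25 to 0.21 for Prkag2 and −0.058 to 0.55 for Camkk2. They were between strains −0.055 to 0.21 for Prkag2, −0.29 to 0.11 for Camkk2 and −0.14 to 0.15 for Prkab2. Last, they were for the interaction −0.080 to 0.11 for Prkab1, −0.43 to 0.033 for Prkag2 and −0.59 to 0.13 for Prkag1.

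Same-numbered libraries did not deviate together (correlations −0.097 to 0.14 in BALB/c and −0.045 to 0.065 in C57BL/6J, and none matched its own number best), so the numbers gave no sign of pairing. Such correlations cannot exclude that same-numbered retinas came from the same mouse, which the labels do not say. With the replicate block 3 genes were called in BALB/c, 2 in C57BL/6J and 0 for the interaction, and no member changed its call. Prkab2 in BALB/c turned to 0.0058. No paired analysis was possible between strains because the mice differ. The counts per library were lowest for Prkag3 (0 to 5, not tested), Prkag2 (3 to 65), Camkk2 (4 to 80) and Prkaa2 (8 to 88).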
